A study of Homo sapiens with 56 samples.

Results

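Transcript levels of homologous recombination genes were followed in PEO1 and PEO4, established cell lines of high-grade serous ovarian carcinoma, under estradiol and 2 estrogen receptor ligands that oppose it. The genes were BRCA1, BRCA2, BARD1, BRIP1, RAD51C, XRCC2, XRCC3, RAD54L and BLM, chosen by name, and every probe set to which the array's annotation gives 1 of these symbols was taken. The rule found 10 of the 22215 probe sets tested, after 62 control probe sets were set aside from 22277. They stand for 8 of the 9 genes: BRCA1 and RAD51C had 2 probe sets each, and BARD1, BRIP1, XRCC2, XRCC3, RAD54L and BLM had 1 each. BRCA2 was not analysed here. No probe set carried a member symbol beside another symbol, so all 10 were kept, with no filter on low values.

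Every culture, the 0 h cells included, was first kept for 3 days without hormone, in medium free of phenol red with charcoal-stripped serum. The series holds 56 arrays, 28 per line, in 7 groups of 4 arrays for each line. Untreated cells were taken at 0 h. For 3 h the other groups received ethanol as the vehicle, 1 nM estradiol (E2), 1 uM fulvestrant (ICI) or 1 uM 4-hydroxytamoxifen (4OHT). The last groups had E2 together with ICI or together with 4OHT at the same doses. Fulvestrant is a receptor antagonist that leads to loss of the receptor protein, and 4OHT is the active metabolite of tamoxifen and blocks or stimulates the receptor depending on the tissue. PEO4 arrays titled Tam were read as 4OHT, as the series description defines the word. Each line is a single tumour-derived line, and the labels do not say whether replicate arrays came from separate cultures, so the p-values measure the spread between these arrays, which may be technical.

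Homologous recombination mends breaks that run through both strands of DNA by copying the sister chromatid, and it works mainly in S and G2 phase, when a sister is present. BRCA1 and its partner BARD1 form a ubiquitin ligase that favours cutting back of the broken ends, and BRIP1 is a helicase that binds BRCA1. RAD51C, XRCC2 and XRCC3 act in complexes that help the exposed strand to be made ready for strand exchange, and RAD54L is a motor protein that helps that strand invade the sister. BLM is a helicase that takes joined molecules apart. Inherited defects in several of these genes raise the risk of ovarian cancer, and transcription of many of them rises with entry into S phase through E2F factors.

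The sequences around the transcription starts are shown because the genes share a feature there. The windows run from 60 bases before the start to 30 bases from it, come from RefSeq on GRCh38.p14, and are written on the strand of the gene. Capitals mark matches to the core of the E2F motif on either strand. The base at the start is base 1. BARD1 is at chr2:214809654-214809743 on the minus strand, BRCA1 at chr17:43125335-43125424 (minus), BRIP1 at chr17:61863499-61863588 (minus), BLM at chr15:90717286-90717375 (plus), RAD51C at chr17:58692513-58692602 (plus) and XRCC2 at chr7:152676112-152676201 (minus).
BARD1: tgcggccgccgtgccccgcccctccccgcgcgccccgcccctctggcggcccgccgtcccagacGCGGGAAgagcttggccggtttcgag
BRCA1: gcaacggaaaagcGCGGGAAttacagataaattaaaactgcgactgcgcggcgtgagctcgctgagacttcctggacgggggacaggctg
BRIP1: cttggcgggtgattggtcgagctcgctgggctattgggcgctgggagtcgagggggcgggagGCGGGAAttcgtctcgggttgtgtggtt
BLM: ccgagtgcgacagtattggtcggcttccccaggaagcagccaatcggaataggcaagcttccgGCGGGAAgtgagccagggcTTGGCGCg
RAD51C: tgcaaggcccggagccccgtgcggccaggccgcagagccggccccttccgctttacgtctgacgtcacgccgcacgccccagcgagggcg
XRCC2: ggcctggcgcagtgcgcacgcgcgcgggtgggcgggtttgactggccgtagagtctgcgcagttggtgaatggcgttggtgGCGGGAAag

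The E2F core was searched on both strands as TTCCCGC or TTCGCGC, and also as TTGCCGC or TTGGCGC. Of the 8 genes measured, 7 held a match in the 90 bases for at least 1 of their starts, against 4.35% of all 35116 starts in the table, and RAD51C, with 2 starts listed, held none. The count is per gene and the share per start, here and for the half-site below. The match began at base 5 in BARD1, base 3 in BRIP1, base 22 in XRCC2 and bases 4 and 23 in BLM, all within the transcript, and 47 bases before the start in BRCA1. BRCA1 and RAD54L each have a further start in the table, whose window of 90 bases held no match. RAD54L and XRCC3 had a match 49 and 2 bases before a start. The half-site of the estrogen receptor, AGGTCA, lay in no window of 90 bases and in windows of 300 bases of BRCA1 and RAD54L, against 13.8% of all windows of that length. No E2F match overlapped a half-site. These are matches of letters, and they say nothing of what binds there.

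The values are log2 expression values made with RMA, a method that corrects background, normalizes arrays and summarizes probes. Of 10 markers of serous ovarian epithelium, among them PAX8, WT1, EPCAM and ESR1, 10 lay above the middle of the array in each line. Fibroblast markers did so for 1 of 6, and leukocyte, endothelial and hepatocyte markers for none. The median over an array was 7.40 to 7.48 for PEO1 and 7.84 to 7.91 for PEO4, so the lines appear to have been normalized apart and were fitted apart. The signal near the 3' end of ACTB minus that near its 5' end, a sign of RNA quality that grows as RNA breaks, was between -0.25 and 0.14 in PEO1. In PEO4 it was between 0.24 and 1.07 on 25 arrays, and 2.28 in 0 h replicate 4, 3.41 in ICI replicate 1 and 1.74 in 4OHT with E2 replicate 4. The same difference in GAPDH was 0.86 and 1.74 on the first and second of these. On the third it was 0.06, within the range of the other 25 PEO4 arrays, which reached 0.12. Differences named in comparisons within PEO4 that move by over 1.5 times without the arrays of wide ACTB difference are given with and without them. SEs and adjusted p-values shrink for some probe sets without them, since the groups share an estimate of the spread. Those are not all given.

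**Figure D1:**
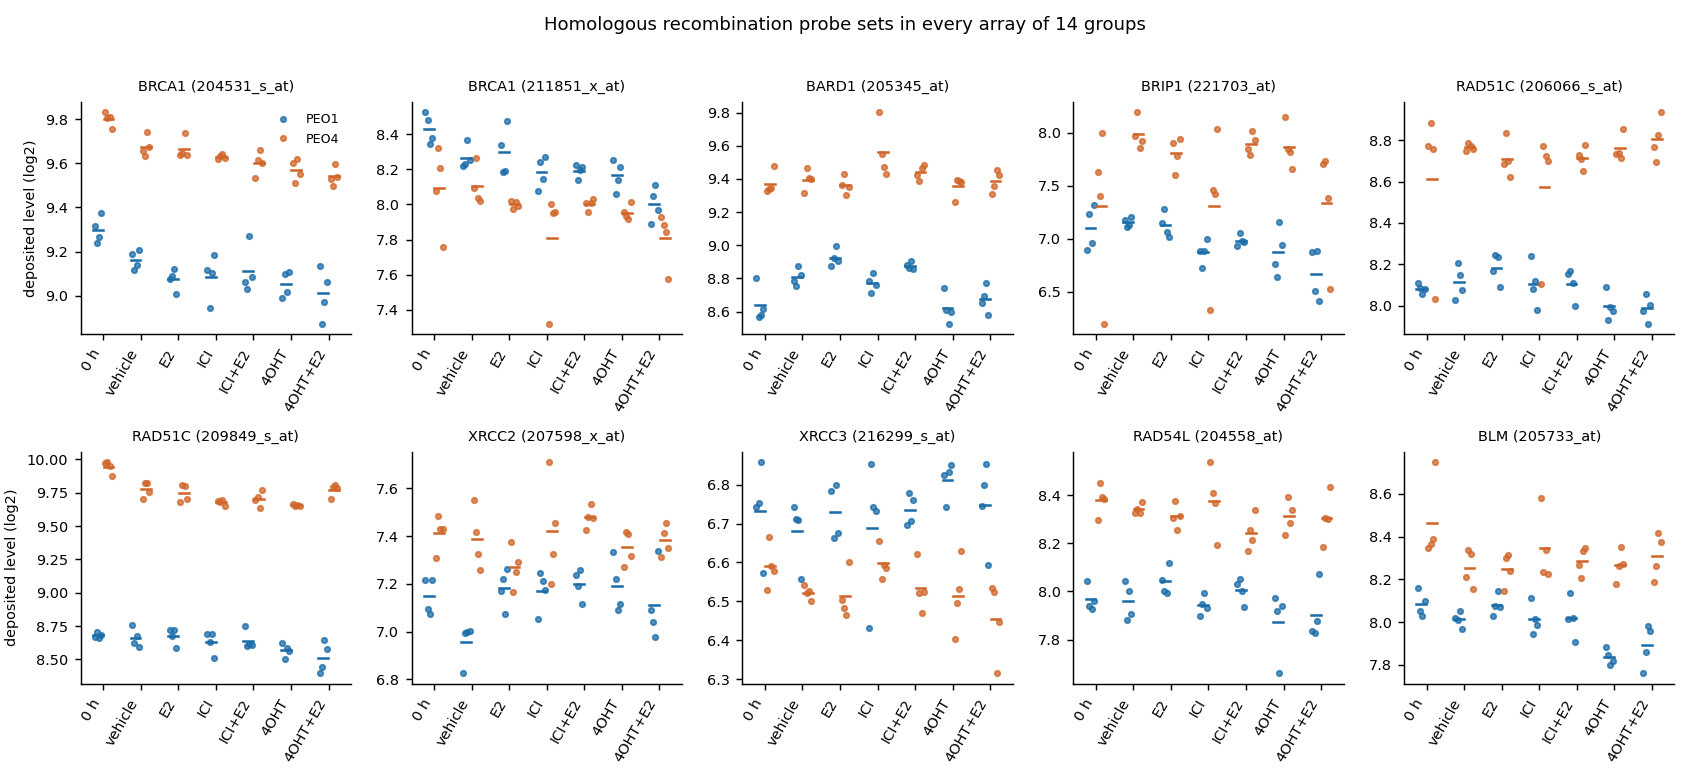
Deposited log2 level of the 10 probe sets (1 panel each, named by gene and probe set) in the 7 groups of PEO1 (blue) and PEO4 (orange); points are arrays, 4 per group, and bars are group means. BARD1 and BLM are lowest in PEO1 with 4OHT, BRCA1 204531_s_at and RAD51C 209849_s_at are highest at 0 h in PEO4, and single PEO4 arrays fall far below their groups in BRIP1, RAD51C 206066_s_at and BRCA1 211851_x_at.

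In PEO1 5 of the 10 probe sets differed among the 7 groups, and in PEO4 2 did. The test was limma's moderated F test with Benjamini-Hochberg adjustment over all 22215 probe sets, with an adjusted p under 0.05 called. Over all probe sets it called 17.3% in PEO1 and 14.8% in PEO4, so the share in PEO4 was near that of the array. In PEO1 the calls were BARD1 (adjusted p = 0.00027), BRCA1 211851_x_at (0.000799), BLM (0.00355), BRIP1 (0.0113) and BRCA1 204531_s_at (0.0133). In PEO4 they were RAD51C 209849_s_at (0.000251) and BRCA1 204531_s_at (0.00054). XRCC2, XRCC3 and RAD54L differed among groups in neither line by this test, XRCC2 with adjusted p-values of 0.0871 in PEO1 and 0.438 in PEO4. The widest span between group means was that of BRIP1 in each line, 0.49 in PEO1 and 0.68 in PEO4, the latter without a call. In PEO4 it lay between vehicle and 0 h, and that difference was 0.31 without the 2 arrays of widest ACTB difference.

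The most calls came with 4OHT in the presence of E2 in PEO1, compared with E2 alone. There 5 of 10 probe sets, of 5 genes, fell and none rose. limma called 9.99% of all probe sets in this comparison and 6.83% as lower. Of all calls 31.7% were higher as deposited, 49.6% after quantile normalization and 39.3% after centring, and 4 and 5 members were then called, all lower. The 5 probe sets were of BRCA1, BARD1, BRIP1, RAD51C and BLM. For BRCA1 and RAD51C, with 2 probe sets each, the other probe set was not called. The called BRCA1 probe set is of a kind whose probes can also match other transcripts. The median over the 10 probe sets was -0.18 on the log2 scale, against -0.01 over all probe sets.

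BARD1 read 8.87, 8.92, 8.99 and 8.90 (log2) in the 4 arrays with E2 and 8.65, 8.69, 8.77 and 8.58 in the 4 with 4OHT and E2. The groups did not overlap. How many of all probe sets had groups that did not overlap was not counted, here or in the treatment comparisons below. The difference was -0.25 with a standard error (SE) of 0.05, 1.19-fold lower, with an adjusted p from limma of 0.00279. BRCA1 211851_x_at read 8.34, 8.19, 8.19 and 8.47 with E2 and 7.89, 8.05, 8.11 and 7.97 with 4OHT and E2. These groups did not overlap either, and the difference was -0.29 (SE 0.06, limma adjusted p = 0.00343). The other BRCA1 probe set, 204531_s_at, read 9.07 on average with E2 and 9.01 with 4OHT and E2, a difference of -0.06 (SE 0.06, limma adjusted p = 0.528) that was no larger than its error. The ending _x_at marks a probe set whose probes can also match other transcripts, which holds for this BRCA1 probe set and for that of XRCC2.

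BRIP1 had the widest drop of the 10. It read 7.15, 7.28, 7.07 and 7.02 with E2 and 6.88, 6.51, 6.88 and 6.41 with 4OHT and E2, with no overlap, and fell by 0.46 on the log2 scale (SE 0.11, 1.38-fold, limma adjusted p = 0.00645). Its replicates under 4OHT and E2 spread more than those of the other called genes, with an SD of 0.25. BLM went from 8.03, 8.08, 8.15 and 8.07 to 7.76, 7.86, 7.98 and 7.96, a difference of -0.19 (SE 0.05, limma adjusted p = 0.0177). All 4 treated arrays lay below all 4 E2 arrays.

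Of the RAD51C probe sets, 1 passed the test. RAD51C 206066_s_at read 8.17, 8.24, 8.23 and 8.09 with E2 and 7.97, 8.06, 7.91 and 8.005 with 4OHT and E2, with no overlap and a difference of -0.20 (SE 0.05, limma adjusted p = 0.02). RAD51C 209849_s_at differed by -0.16 (SE 0.05) at an adjusted p of 0.0589. The differences were -0.07 for XRCC2 and 0.02 for XRCC3, and RAD54L gave -0.14 (SE 0.06, limma adjusted p = 0.144).

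The calls for BARD1, BRCA1 211851_x_at and BRIP1 held with each array left out in turn, and those for BLM and RAD51C did not: the count of calls was 3 without E2 replicate C. A fit of just the 8 arrays of these groups gave 0 calls, the adjusted p-values of the 5 probe sets then lying between 0.0504 and 0.137 with the same differences.

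**Figure D2:**
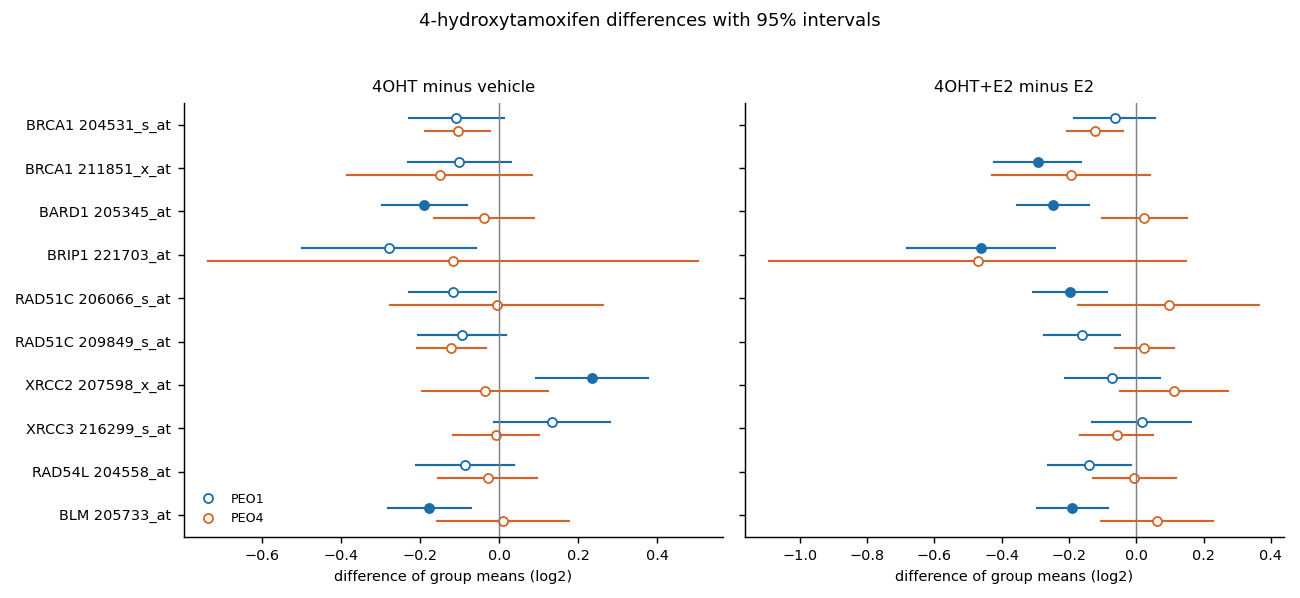
Difference between group means (log2) with its 95% interval for the 10 probe sets, 4OHT against vehicle (left) and 4OHT with E2 against E2 (right), in PEO1 (blue) and PEO4 (orange), 4 arrays per group. Filled circles are called by limma; on the right 5 PEO1 circles are filled, all below 0, and no PEO4 circle is filled in either panel.

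Without E2, 4OHT lowered BARD1 and BLM in PEO1 and raised XRCC2, against vehicle. These were 3 of 10 probe sets, beside 4.21% of all probe sets, of which 1.4% were higher and 2.81% lower. BARD1 read 8.78, 8.75, 8.87 and 8.82 with vehicle and 8.74, 8.61, 8.53 and 8.60 with 4OHT, without overlap. The difference was -0.19 (SE 0.05, limma adjusted p = 0.0382). BLM read 8.02, 8.01, 8.05 and 7.97 with vehicle and 7.89, 7.84, 7.80 and 7.82 with 4OHT, a difference of -0.18 (SE 0.05, limma adjusted p = 0.0471) with no overlap.

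XRCC2 went the other way, from 6.82, 6.995, 6.997 and 7.003 with vehicle to 7.33, 7.22, 7.09 and 7.12 with 4OHT. The difference was 0.23 (SE 0.07, limma adjusted p = 0.0494), and the groups did not overlap. Vehicle was the lowest of the 7 PEO1 groups for XRCC2: the group means were 7.15 at 0 h, 7.18 with E2, 7.17 with ICI and 7.20 with ICI and E2, and all these comparisons share the same vehicle arrays. BRIP1 differed by -0.28 (SE 0.11) with an adjusted p of 0.145, and its groups overlapped, since 1 array with 4OHT read 7.16.

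All 3 adjusted p-values stood between 0.0382 and 0.0494. BARD1 kept its call in 7 of 16 alternative fits, XRCC2 in 7 of 16 and BLM in 5 of 16, their adjusted p-values over these alternatives lying between 0.0138 and 0.17. The count was 0 without vehicle replicate A, C or D or without 4OHT replicate B or D, and 1 without vehicle replicate B or 4OHT replicate C. After quantile normalization of the PEO1 arrays, 713 probe sets were called in all, 401 of them higher, against 936 and 312 as deposited, and after centring each array on its median 757 were called with 46.4% of them higher. XRCC2 alone among the members passed after either step.

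With E2 present, 4OHT against ICI lowered BARD1 in PEO1, 1 of 10 probe sets, beside 2.71% of all and 1.63% lower. Of all calls 40.03% were higher as deposited and 59.9% after quantile normalization, after which no member was called. BARD1 read 8.88, 8.86, 8.90 and 8.86 with ICI and E2, a narrow spread, and all 4 arrays with 4OHT and E2 lay below them. The difference was -0.20 (SE 0.05, limma adjusted p = 0.0343). BRCA1 211851_x_at (-0.19, adjusted p = 0.1) and BRIP1 (-0.31, 0.108) also had groups that did not overlap, a trait not counted over all probe sets, and neither passed. The BARD1 call was lost without any single array of either group except ICI with E2 replicate D and 4OHT with E2 replicate C, without which it held. Without 4OHT with E2 replicate C the count rose to 3.

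Without E2, 4OHT against ICI gave 0 of 10 calls in PEO1, where limma called 2.39% of all probe sets. At an unadjusted p under 0.05 were 2 of 10, beside 3769 of all 22215 probe sets. The smallest p-values were those of BLM (-0.18, SE 0.05, adjusted p = 0.0644), BARD1 (-0.15, SE 0.05, 0.118) and RAD51C 206066_s_at (-0.11, SE 0.05, 0.308). BARD1 passed without 4OHT replicate A (adjusted p = 0.0429) and in no other fit that left out 1 array.

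E2 itself moved none of the 10 past the threshold in PEO1, where limma called 1.5% of all probe sets. Before adjustment 2 of 10 had a p under 0.05, beside 2342 of all 22215 probe sets. XRCC2 differed from vehicle by 0.23 (SE 0.07, adjusted p = 0.113), BARD1 by 0.12 (SE 0.05, 0.41) and BRCA1 204531_s_at by -0.09 (SE 0.06, 0.678). For BARD1 the 95% interval of the difference was 0.01 to 0.22 and for BLM -0.04 to 0.17. ICI alone also gave 0 calls, where limma called 0.0585% of all. It left 2 of 10 at an unadjusted p under 0.05, beside 1036 of all 22215 probe sets. XRCC2 differed by 0.22 (SE 0.07, adjusted p = 0.738), BRIP1 by -0.28 (SE 0.11, 0.988) and BRCA1 211851_x_at by -0.08 (SE 0.06, 0.9998). BRIP1 read between 6.73 and 6.997 with ICI and between 7.11 and 7.20 with vehicle, without overlap.

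ICI added to E2 gave 0 calls in PEO1, where limma called 1.88% of all probe sets. No member had an unadjusted p under 0.05, and 2002 of all 22215 probe sets did. The smallest p-values were those of BRCA1 211851_x_at (-0.10, SE 0.06, adjusted p = 0.728), RAD51C 206066_s_at (-0.08, SE 0.05, 0.803) and BRIP1 (-0.15, SE 0.11, 0.814). The 95% interval for BARD1 was -0.15 to 0.06.

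From 0 h to 3 h of vehicle, 0 of 10 were called in PEO1, where limma called 5.66% of all probe sets. At an unadjusted p under 0.05 were 4 of 10, beside 3998 of all 22215 probe sets. BARD1 differed by 0.17 (SE 0.05, adjusted p = 0.0617), XRCC2 by -0.19 (SE 0.07, 0.103) and BRCA1 211851_x_at by -0.16 (SE 0.06, 0.142). BARD1 at 0 h read 8.80, 8.57, 8.58 and 8.62. Without 0 h replicate A, its highest value, the difference was 0.22 with an adjusted p of 0.0104.

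In PEO4, 3 h of vehicle lowered RAD51C 209849_s_at, 1 of 10 probe sets, beside 4.89% of all probe sets and 1.88% lower. The probe set read 9.97, 9.98, 9.95 and 9.88 at 0 h and 9.71, 9.82, 9.82 and 9.76 with vehicle. The difference was -0.17 (SE 0.04, 1.12-fold lower, limma adjusted p = 0.0185). The 4 arrays at 0 h were the highest of the 28, and the later groups averaged between 9.66 and 9.78.

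BRCA1 204531_s_at had the same shape in PEO4, with 9.83, 9.81, 9.81 and 9.76 at 0 h and 9.65, 9.63, 9.74 and 9.67 with vehicle. The difference was -0.13 (SE 0.04, limma adjusted p = 0.0741), with no overlap. BLM differed by -0.21 (SE 0.08, limma adjusted p = 0.162), its highest 0 h array, replicate 4 at 8.75, being 1 of the 3 with a wide ACTB difference. Without the 2 or the 3 such arrays the RAD51C difference was -0.19 with an adjusted p of 0.00718 or 0.00728, and BRCA1 204531_s_at passed with -0.14 and 0.0479 or 0.0449. BLM was then -0.11. The RAD51C call was lost without 0 h replicate 1 or 2 or vehicle replicate 1 or 4, and when the fit held just the arrays of these 2 groups (adjusted p = 0.123), over alternatives from 0.00132 to 0.123. The other RAD51C probe set differed by 0.16 (SE 0.13, limma adjusted p = 0.564) with all arrays and by -0.04 without the 2.

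The other PEO4 comparisons gave 0 of 10 calls. With E2, 0 of 10 had an unadjusted p under 0.05, beside 1797 of all 22215 probe sets. After adjustment limma called 1.44% of all. The smallest p-values were those of XRCC2 (-0.12, SE 0.08, adjusted p = 0.856), BRCA1 211851_x_at (-0.10, SE 0.11, 0.978) and RAD51C 209849_s_at (-0.03, SE 0.04, 0.995). With ICI added to E2, limma also called 1.44% of all probe sets. There 1 member had an unadjusted p under 0.05, beside 2385 of all 22215 probe sets. XRCC2 differed by 0.21 (SE 0.08, adjusted p = 0.261), BRCA1 204531_s_at by -0.06 (SE 0.04, 0.644) and BARD1 by 0.08 (SE 0.06, 0.72). XRCC2 read 7.37, 7.16, 7.25 and 7.29 with E2 and 7.43, 7.48, 7.53 and 7.48 with ICI and E2, without overlap. With the 2 arrays of widest ACTB difference left out, the XRCC2 difference was the same, with an SE of 0.06 and a limma adjusted p of 0.0851.

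4OHT gave no call in PEO4 either. Against vehicle, 2 of 10 had an unadjusted p under 0.05, beside 3797 of all 22215 probe sets. After adjustment limma called 3.93% of all probe sets. RAD51C 209849_s_at differed by -0.12 (SE 0.04, adjusted p = 0.115) and BRCA1 204531_s_at by -0.10 (SE 0.04, 0.159), both without overlap, and BRCA1 211851_x_at by -0.15 (SE 0.11, 0.553). With the 3 arrays of wide ACTB difference left out, RAD51C 209849_s_at and BRCA1 211851_x_at kept these differences. Their limma adjusted p-values were then 0.0662 and 0.0696. The BARD1 difference was -0.04, with a 95% interval of -0.17 to 0.09, and that of BLM 0.01, with an interval of -0.16 to 0.18. With E2 present, 1 of 10 had an unadjusted p under 0.05, beside 3205 of all 22215 probe sets, and limma called 4.25% after adjustment. BRCA1 204531_s_at differed by -0.12 (SE 0.04, adjusted p = 0.0933), BRCA1 211851_x_at by -0.19 (SE 0.11, 0.481) and BRIP1 by -0.47 (SE 0.30, 0.533). Without the 3 arrays BRIP1 was -0.20 and BRCA1 211851_x_at -0.12. With only the 2 of widest ACTB difference left out, BRCA1 211851_x_at stayed at -0.19, with an SE of 0.06 and a limma adjusted p of 0.074.

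ICI alone and the comparisons of the 2 antagonists rest in part on the arrays with a wide ACTB difference. With ICI alone, 4 of 10 had an unadjusted p under 0.05, beside 4123 of all 22215 probe sets. After adjustment limma called 0.0765% of all probe sets. BARD1 differed by 0.17 (SE 0.06, adjusted p = 0.16), BRCA1 211851_x_at by -0.30 (SE 0.11, 0.177) and RAD51C 209849_s_at by -0.10 (SE 0.04, 0.216). For 4OHT against ICI, 1 of 10 had an unadjusted p under 0.05, beside 3393 of all 22215 probe sets, and limma called 1.56% after adjustment. BARD1 differed by -0.21 (SE 0.06, adjusted p = 0.0917), BRIP1 by 0.55 (SE 0.30, 0.382) and BRCA1 204531_s_at by -0.06 (SE 0.04, 0.496). Without the 2 arrays, BARD1 differed by 0.09 and BRCA1 211851_x_at by -0.14 from vehicle under ICI, and between 4OHT and ICI BARD1 differed by -0.13 and BRIP1 by 0.23. Leaving out ICI replicate 4 instead gave 1 call in each of these comparisons, BARD1, with adjusted p-values of 0.0438 and 0.0315. Over all probe sets that fit called 7.01% and 3.05%, so the share called in the ICI comparison itself rests on that array. For 4OHT against ICI with E2 present, 0 of 10 had an unadjusted p under 0.05, beside 3399 of all 22215 probe sets. After adjustment limma called 3.21%. The smallest p-values were those of BRIP1 (-0.56, SE 0.30, adjusted p = 0.393), BRCA1 211851_x_at (-0.19, SE 0.11, 0.448) and RAD51C 209849_s_at (0.06, SE 0.04, 0.501). Without the 3 arrays BRIP1 was -0.29 and BRCA1 211851_x_at -0.12.

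Those 3 arrays set much of the spread of 3 probe sets in PEO4. BRIP1 read 6.20, 6.33 and 6.52 on them (0 h replicate 4, ICI replicate 1 and 4OHT with E2 replicate 4) and between 7.38 and 8.19 on the other 25. BRCA1 211851_x_at read 7.76, 7.32 and 7.57 on them and at least 7.84 elsewhere. RAD51C 206066_s_at was low on the first and second, at 8.03 and 8.10, and at 8.93 on the third was above the 8.62 to 8.88 of the other arrays. BARD1 (9.80) and BLM (8.58) lay above the other 25 arrays in ICI replicate 1. The pooled SD within PEO4 groups was 0.47 for BRIP1 with all arrays and 0.21 without the 3, against 0.16 in PEO1. The part of RNA quality in these values was not tested.

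**Figure D3:**
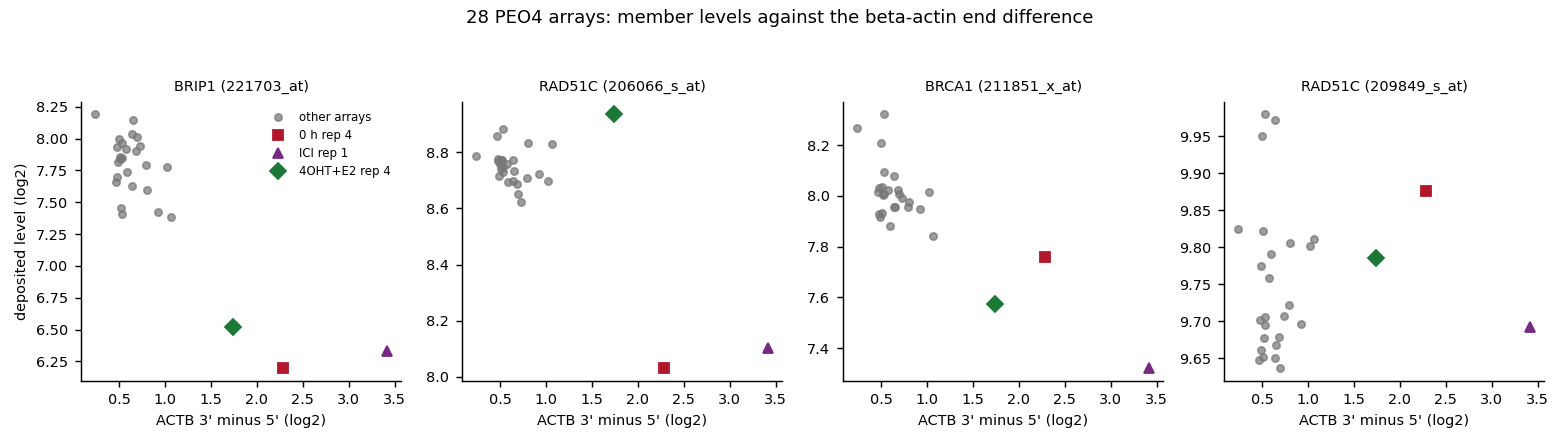
Deposited log2 level of 4 probe sets on the 28 PEO4 arrays against the ACTB 3' minus 5' difference (log2); grey circles are 25 arrays, and the coloured marks are the 3 arrays named in the legend. BRIP1 and BRCA1 211851_x_at are lowest on the 3 marked arrays, RAD51C 206066_s_at is low on 2 of them, and RAD51C 209849_s_at lies within the range of the other arrays.

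For vehicle against 0 h and for E2, ICI and 4OHT each against vehicle, no response of the 10 probe sets was shown to differ between the lines. The difference of responses, PEO4 minus PEO1, was tested in 1 limma fit over all 56 arrays, and 0 of 10 were called in any of the 4, with 1 at an unadjusted p under 0.05 in each. The difference between lines was not tested for 4OHT with E2 against E2. Over all probe sets limma called 1.46%, 0.32%, 0.063% and 0.783%. In the same order, 2339, 1357, 2221 and 2947 of all 22215 probe sets had an unadjusted p under 0.05. For 4OHT against vehicle the smallest p-values were those of XRCC2 (-0.27, SE 0.10, adjusted p = 0.228), BLM (0.19, SE 0.10, 0.394) and BARD1 (0.15, SE 0.08, 0.413). The 95% interval for BARD1 was -0.01 to 0.31, so the BARD1 differences of -0.19 in PEO1 and -0.04 in PEO4 were not shown to differ.

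For E2 they were those of XRCC2 (-0.34, SE 0.10, adjusted p = 0.255), BARD1 (-0.15, SE 0.08, 0.866) and RAD54L (-0.11, SE 0.08, 0.991). The XRCC2 difference was 0.23 in PEO1 and -0.12 in PEO4, neither called. For ICI they were those of BARD1 (0.20, SE 0.08, adjusted p = 0.42), XRCC2 (-0.18, SE 0.10, 0.541) and BRCA1 211851_x_at (-0.21, SE 0.13, 0.571). For vehicle against 0 h they were those of RAD51C 209849_s_at (-0.15, SE 0.07, adjusted p = 0.399), BRIP1 (0.62, SE 0.33, 0.529) and BARD1 (-0.14, SE 0.08, 0.561). The PEO4 part of the BRIP1 value, 0.68, was 0.31 without the 2 arrays of widest ACTB difference. For ICI, the PEO4 parts of BARD1, XRCC2 and BRCA1 211851_x_at were 0.17, 0.03 and -0.30 with all arrays. Without those 2 arrays they were 0.09, -0.06 and -0.14.

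Levels between the lines are described without a test, because the scale of the lines differed. As deposited, all 28 PEO4 arrays lay above all 28 PEO1 arrays for 4 of the 10 probe sets, BRCA1 204531_s_at, BARD1, RAD51C 209849_s_at and RAD54L, and below them for none. That was so for 48.6% of all probe sets above and 4.42% below, so 4 of 10 is close to the share of the array. BRIP1 and RAD51C 206066_s_at overlapped only through PEO4 arrays with a wide ACTB difference. On the other 25 arrays they read at least 7.38 and 8.62, above the PEO1 highest of 7.31 and 8.24. The share of all probe sets without those arrays was not counted. Vehicle means were 8.66 in PEO1 and 9.78 in PEO4 for RAD51C 209849_s_at, 8.81 and 9.40 for BARD1, 9.16 and 9.68 for BRCA1 204531_s_at, and 7.96 and 8.34 for RAD54L. The median difference over the 10 was 0.47, against 0.45 over all probe sets.

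As percentile ranks within each array, which do not depend on that scale, RAD51C 209849_s_at was higher in every PEO4 array, and BRCA1 211851_x_at and XRCC3 were lower in every PEO4 array. That was so for 17.7% of all probe sets above and 16.6% below. In vehicle RAD51C 209849_s_at stood at percentile 66.8 in PEO1 and 74.6 in PEO4, BRCA1 211851_x_at at 61.4 and 52.9, and XRCC3 at 38.6 and 29.6. BRCA1 204531_s_at stood at 73.3 and 73.4. The BRCA1 probe sets thus gave different answers, level in 204531_s_at and lower in PEO4 in 211851_x_at. Every PEO4 array had a wider ACTB difference (at least 0.24) than any PEO1 array (at most 0.14). The GAPDH difference ran from -0.12 to 0.002 in PEO1 and from 0.001 to 1.74 in PEO4, ranges that overlapped only at their ends. Line and RNA quality thus cannot be told apart in these levels. BRCA1 211851_x_at was also low on the 3 PEO4 arrays with the widest difference. The BLM and RAD54L means were higher in PEO4 as deposited (0.24 and 0.38) and lower after centring each array on its median (-0.18 and -0.041).

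**Figure D4:**
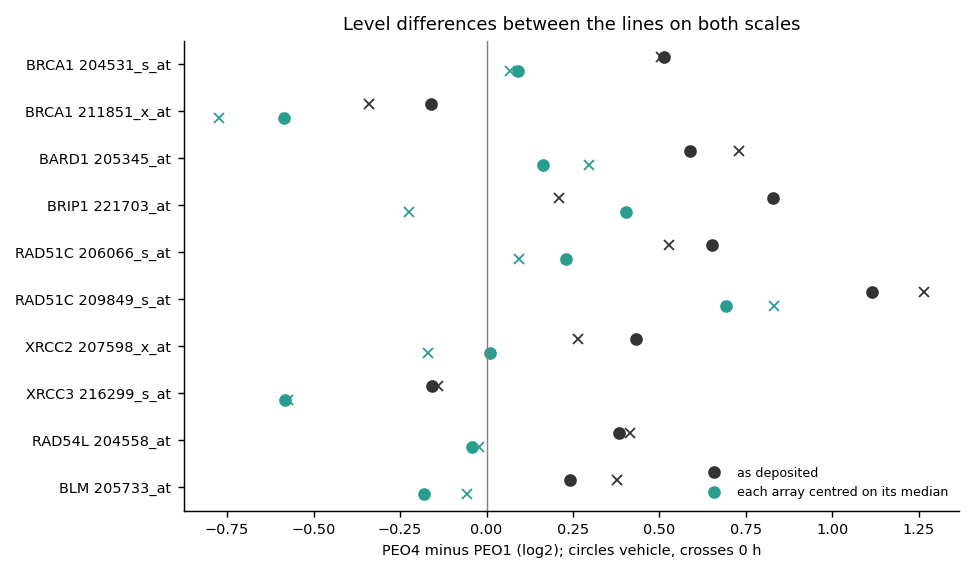
PEO4 minus PEO1 mean level (log2) of the 10 probe sets in vehicle (circles) and at 0 h (crosses), as deposited (black) and with each array centred on its median (green). RAD51C 209849_s_at stays above 0 on both scales, at 1.12 and 0.69 in vehicle, XRCC3 and BRCA1 211851_x_at stay below it. BLM and RAD54L change sign in both groups, and BRIP1 (0.21 and -0.23) and XRCC2 (0.26 and -0.17) do so at 0 h. The BRIP1 values at 0 h rest in part on PEO4 replicate 4, an array with a wide ACTB difference. It read 6.20, against 7.38 to 8.19 on the 25 PEO4 arrays without a wide difference.

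The order of the groups differed between the genes. In PEO1 the BARD1 means ran from 8.92 (SD 0.05, n = 4) with E2 over 8.88 with ICI and E2, 8.81 with vehicle, 8.77 with ICI, 8.68 with 4OHT and E2 and 8.64 at 0 h to 8.62 (SD 0.09) with 4OHT. Neighbours in this order lay within 0.10 of each other, and the 3 lowest, both 4OHT groups and 0 h, overlapped. BRCA1 204531_s_at ran in PEO4 from 9.80 (SD 0.03) at 0 h over 9.68 with vehicle, 9.66 with E2, 9.63 with ICI, 9.60 with ICI and E2 and 9.57 with 4OHT to 9.54 (SD 0.04) with 4OHT and E2. There 0 h alone stood apart from its neighbour, and each of the later groups overlapped with the next.

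Other genes of the pathway, 46 measured from a list of mediators, end resection and damage signalling, helicases and Fanconi anaemia genes, included genes that fell under 4OHT in PEO1. With E2 present, 12 of 46 fell and 0 rose, with a median of -0.11 against -0.01 over all probe sets. Of all probe sets, limma called 6.83% lower in this comparison and 2.81% lower in that without E2. Those with the smallest p were FEN1, a flap nuclease (-0.17, SE 0.04, limma adjusted p = 0.00769), RPA1, a subunit of the single-strand binding protein RPA (-0.17, SE 0.04, 0.0116), RAD52, an annealing factor (-0.25, SE 0.07, 0.0145) and RMI1, a partner of BLM (-0.22, SE 0.06, 0.0147). Without E2, 5 of 46 fell and 0 rose, with a median of -0.10 against -0.03, led by FANCI (-0.21, SE 0.05, limma adjusted p = 0.0111), RPA1 (-0.17, SE 0.04, 0.0191), RAD54B (-0.28, SE 0.07, 0.022) and RPA2 (-0.20, SE 0.05, 0.0358). After quantile normalization these counts were 3 and 2 lower, with 0 higher, and after centring 9 and 4. Of all probe sets, 8.14% and 3.21% were called in either direction after quantile normalization, and 9.24% and 3.41% after centring. After quantile normalization 49.6% and 56.2% of those calls were higher, and after centring 39.3% and 46.4%. The counts for the 46 genes are of lower calls only, so these shares are wider than the matching ones.

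Of mitosis genes in the same comparisons, 14 of 23 fell with E2 present (median -0.20) and 9 of 23 without it (median -0.17), and genes of G1/S and DNA replication fell in 8 and 4 of 28. Of 11 genes of end joining and single-strand break repair, 3 and 1 fell. Beside these counts, 6.83% and 2.81% of all probe sets were called lower. None of these lists had a member that rose in either comparison. Quantile normalization left 10 and 8 mitosis genes lower, and 3 and 3 of G1/S. Of all probe sets 8.14% and 3.21% were then called in either direction, and 49.6% and 56.2% of those calls were higher. Whether the members' lower levels went with fewer cells in S and G2 phase was not tested, and in bulk RNA fewer cells of a phase and less RNA per cell cannot be told apart.

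In PEO4 0 of the 46 other pathway genes rose and 1 fell under 4OHT against vehicle, and 1 rose and 1 fell with E2 present. These shares are near those of all probe sets called, 3.93% and 4.25%. RPA2 was the one that fell in both, by 0.23 and 0.27 on the log2 scale (SE 0.06 in each, limma adjusted p = 0.0178 and 0.00254), and EXO1, an end-resecting nuclease, rose by 0.19 (SE 0.05, 0.0191) with E2 present. These comparisons do not share control arrays. With E2 alone, 0 of 46 were called in either direction in PEO1 or in PEO4.

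Over the 14 group means, with the mean of each line taken away, the genes whose pattern was most like that of BRCA1 204531_s_at were KIAA1107 (Pearson r = 0.96), STON1 (0.96), BHLHE41 (0.96), GRAMD1C (0.95) and SCAPER (0.94), out of 11962 genes with 1 probe set each. After quantile normalization BHLHE41 and STON1 held places 1 and 2, KIAA1107 place 7, and GRAMD1C and SCAPER places 17 and 18. All 5 were higher at 0 h than with vehicle in both lines, as BRCA1 204531_s_at was. They were picked for likeness to that probe set over these same means, so this follows in part from the choice. Of the members, RAD51C (r = 0.73, place 455) and BLM (0.64, place 934) came nearest, and BARD1 (-0.13) was far from it. These values describe 14 means that share arrays by line and carry no p.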

How the data were processed

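RNA of 56 samples of PEO1 and PEO4 cells was measured on Affymetrix expression arrays of 22277 probe sets. The authors deposited log2 values made with RMA, per the submitters' processing notes, its version being not given in the sources used here. RMA values hold no detection calls, and RMA's normalization can move small differences of many genes together. By the array's annotation, 19064 of the probe sets tested carry a single symbol, 1043 carry several and 2108 carry none.

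The lines were fitted separately (limma 3.58.1, R 4.3.3), each with a mean for all 7 groups of its 28 arrays, which leaves 21 residual degrees of freedom, and without a replicate block. Adjusted p-values are Benjamini-Hochberg values over 22215 probe sets, 2-sided, and an adjusted p under 0.05 was called. Differences of responses between lines were fitted over 56 arrays. SE is limma's moderated standard error. The code was tested on simulated data. The members and lists were chosen with earlier results of these data known, and the likeness of other genes was described only for BRCA1, since BRCA2 was not analysed. In each comparison the called members are given, or the 3 with the smallest p. Alternatives were a trend and robust variance, leaving out the lowest 40 percent of probe sets, 1 probe set per gene, quantile normalization, centring on the median, a replicate block, array weights, only the compared groups, and leaving out arrays singly or, in PEO4, by RNA quality. Leaving out the 3 arrays together was chosen after seeing the data. The number of arrays limits the precision. Raw scanner files were not used here.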

Additional observations from a re-analysis of the deposited data

Results flagged for a closer look

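In 9 of 140 groups of 4 arrays, 1 array stood far from the other 3 for a member, with a gap to the nearest that was beyond Dixon's 95% critical share of the group's range. Chance alone marks about 1 group in 20.

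Of these, 5 came from PEO4 0 h replicate 4 and ICI replicate 1, which had ACTB differences of 2.28 and 3.41, and were low or high as follows. RAD51C 206066_s_at read 8.03 in 0 h replicate 4 against 8.76 to 8.88 in the other 3 arrays, and 8.10 in ICI replicate 1 against 8.70 to 8.77. BRCA1 211851_x_at read 7.32 in ICI replicate 1 against 7.95 to 8.002. BARD1 read 9.48 in 0 h replicate 4 against 9.33 to 9.34. BLM in the same array read 8.75 against 8.35 to 8.39.

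The others came from arrays with no wide ACTB difference. BRCA1 204531_s_at read 9.74 in PEO4 E2 replicate 3 against 9.64 to 9.65, and BARD1 read 9.26 in PEO4 4OHT replicate 1 against 9.38 to 9.39. In PEO1, RAD51C 209849_s_at read 8.75 in ICI with E2 replicate A against 8.60 to 8.61, and XRCC2 read 6.82 in vehicle replicate A against 6.995 to 7.003. That last array enters every PEO1 comparison with vehicle. Without it, the XRCC2 difference between 4OHT and vehicle was 0.19 with a limma adjusted p of 0.17, over alternatives from 0.0232 to 0.17.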

How the results depend on the processing

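Counts of called members, of 10, moved as follows, the main count standing first. Leaving out the lowest 40 percent of probe sets gave 0 to 1 for PEO1 vehicle against 0 h, PEO1 4OHT against ICI and PEO4 4OHT with E2 against E2, and 1 to 2 for PEO4 vehicle against 0 h. With 1 probe set per gene, PEO1 vehicle against 0 h and 4OHT against ICI went from 0 to 1. Quantile normalization gave 1 for PEO1 vehicle against 0 h (from 0), 1 for 4OHT against vehicle (from 3) and 0 for 4OHT with E2 against ICI with E2 (from 1). Centring gave 1 for PEO1 4OHT against vehicle (from 3), 1 for 4OHT against ICI (from 0) and 2 for PEO4 vehicle against 0 h (from 1). Array weights gave 1 for PEO1 vehicle against 0 h, 4OHT against ICI, PEO4 ICI against vehicle and PEO4 4OHT with E2 against E2 (all from 0), 2 for PEO4 4OHT against vehicle (from 0), PEO1 4OHT with E2 against ICI with E2 and PEO4 vehicle against 0 h (both from 1), and 4 for the PEO4 test over 7 groups (from 2). With these weights the number of all probe sets called also rose, to 3117 from 17 for PEO4 ICI and to 2943 from 874 for PEO4 4OHT against vehicle. Leaving out the 2 or the 3 PEO4 arrays with a wide ACTB difference gave 2 for PEO4 vehicle against 0 h. With only the compared groups in the fit, PEO1 4OHT against vehicle (3), 4OHT with E2 against E2 (5) and against ICI with E2 (1) and PEO4 vehicle against 0 h (1) fell to 0, with fewer arrays to estimate the spread. Leaving out 1 array at a time gave 0 to 2 for PEO1 4OHT against vehicle, 3 to 6 for 4OHT with E2 against E2, 0 to 3 for 4OHT with E2 against ICI with E2, and 0 to 1 for PEO1 vehicle against 0 h, PEO1 4OHT against ICI, PEO4 vehicle against 0 h, PEO4 ICI against vehicle and PEO4 4OHT against ICI. Where no cause is named it was not tested.

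The replicate letters and numbers were not taken as pairs, since in 15 of 16 comparisons not every pair of same-numbered arrays deviated together. With a replicate block the count was 1 for PEO1 4OHT against vehicle and 2 for PEO4 vehicle against 0 h, and it changed no other count by over 1.5 times. In PEO4 4OHT with E2 against ICI with E2, where all 4 pairs had a correlation over 0.1, it stayed at 0.

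Between the lines, the differences in vehicle turned sign for RAD54L (-0.041 after centring, -0.086 after quantile normalization over all arrays) and BLM (-0.18 and -0.23). None of the 10 called member differences between treatment groups turned sign under the alternatives run; 6 of 80 PEO4 member differences, all uncalled, did so without the 2 arrays, among them RAD51C 206066_s_at in vehicle against 0 h (0.16 to -0.037). Trend and robust variance moved no count by over 1.5 times. Signals lie on a scale without detection calls, so weak probe sets such as XRCC3 could not be checked against background.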
